A study of Homo sapiens with 12 samples.

Results

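The probes described here read the mature arms of miR-205, miR-203a, miR-203b and miR-944, miRNAs of squamous epithelium that are linked to the transcription factor p63 and to keratinocyte differentiation. They were chosen by name, with earlier results of these data known. Of the 2565 human miRNA probes on the array, 7 carry such a name: hsa-miR-205-5p, hsa-miR-205-3p, hsa-miR-203a-3p, hsa-miR-203a-5p, hsa-miR-203b-5p, hsa-miR-203b-3p and hsa-miR-944. The prefix for human is left out below. The cells were KYSE150, an established line derived from a human oesophageal squamous cell carcinoma, kept in Ham's F12 with 2% fetal bovine serum. The treated samples received 100 nM galectin-9, a beta-galactoside-binding lectin, for 6 h, and the control samples did not. RNA of each sample was labelled with the dye Cy5 and hybridised to its own single-colour 3D-Gene array, which gave 6 galectin-9 and 6 control arrays, numbered 1 to 6 in each group. All samples come from 1 cell line, and the labels do not state whether the numbered samples were separate cultures, so a p-value here reflects sample-to-sample spread that could be technical only.

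miR-205 is abundant in basal cells of stratified epithelium, is activated by the deltaNp63 form of p63, and represses the mesenchymal factors ZEB1 and ZEB2 together with the miR-200 family. miR-203 is induced as keratinocytes leave the basal layer and represses p63 itself, which favours the exit from the cell cycle and differentiation. The hairpin of miR-944 lies inside the TP63 gene that encodes p63.

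The mature sequences below are shown because they fix what each probe can read and how the arms relate. They are RefSeq's, with GRCh38.p14 coordinates, and 7 of 7 probe names matched. Each is written 5′ to 3′ with the seed, bases 2 to 8, in capitals.
miR-205-5p: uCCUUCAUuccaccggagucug
miR-205-3p: gAUUUCAGuggagugaaguuc
miR-203a-3p: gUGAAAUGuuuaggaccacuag
miR-203a-5p: aGUGGUUCuuaacaguucaacaguu
miR-203b-5p: uAGUGGUCcuaaacauuucaca
miR-203b-3p: uUGAACUGuuaagaaccacugga
miR-944: aAAUUAUUguacaucggaugag

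miR-205-5p lies at chr1:209432166-209432187 and miR-205-3p at chr1:209432203-209432223, both on the plus strand within the lncRNA gene MIR205HG. miR-944 lies at chr3:189829975-189829996 on the plus strand within the protein-coding gene TP63. miR-203a-3p (chr14:104117469-104117490) and miR-203a-5p (chr14:104117431-104117455) are on the plus strand. miR-203b-5p (chr14:104117468-104117489) and miR-203b-3p (chr14:104117428-104117450) are on the minus strand of the same stretch. The 86 bases of the miR-203b hairpin are all shared with the 110-base miR-203a hairpin, of which they are the reverse complement. Hence miR-203b-5p is complementary to miR-203a-3p over an unbroken run of 21 bases, and miR-203b-3p to miR-203a-5p over 20.

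No seed is shared among the 7 sequences. The closest seeds are those of miR-203a-3p and miR-203b-3p, which differ at 1 base, and along their length these sequences have 17 identical bases of 22 aligned without gaps. miR-203a-5p and miR-203b-5p have 16 of 21. Signal shared between such probes was not tested. Outside the set, miR-6718-5p has the seed of miR-203b-5p, and no other human mature miRNA in the RefSeq table has a seed of any of the 7.

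Intensity is linear Cy5 fluorescence in arbitrary units above the mean of the array's blank spots. A probe counts as detected where the deposited file lists an intensity, which it does only above a limit of 2 SD of the blanks. Galectin-9 arrays had 1551 to 2045 detected human probes and control arrays 934 to 1895, with the lowest number on control 6. The labels name no slide. The names of the deposited files carry a code shared by 4 arrays and a number from 1 to 4, which are taken here as slide and position, an inference that gives 3 slides with 2 galectin-9 and 2 control arrays each. On this reading galectin-9 arrays always had an even and control arrays an odd position, so treatment and parity of the position cannot be told apart in any result below. Probes differ in their response, so bright and dim below describe a spot's signal over the blanks, and no probe's intensity is read as the amount of its miRNA relative to another.

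**Figure D1:**
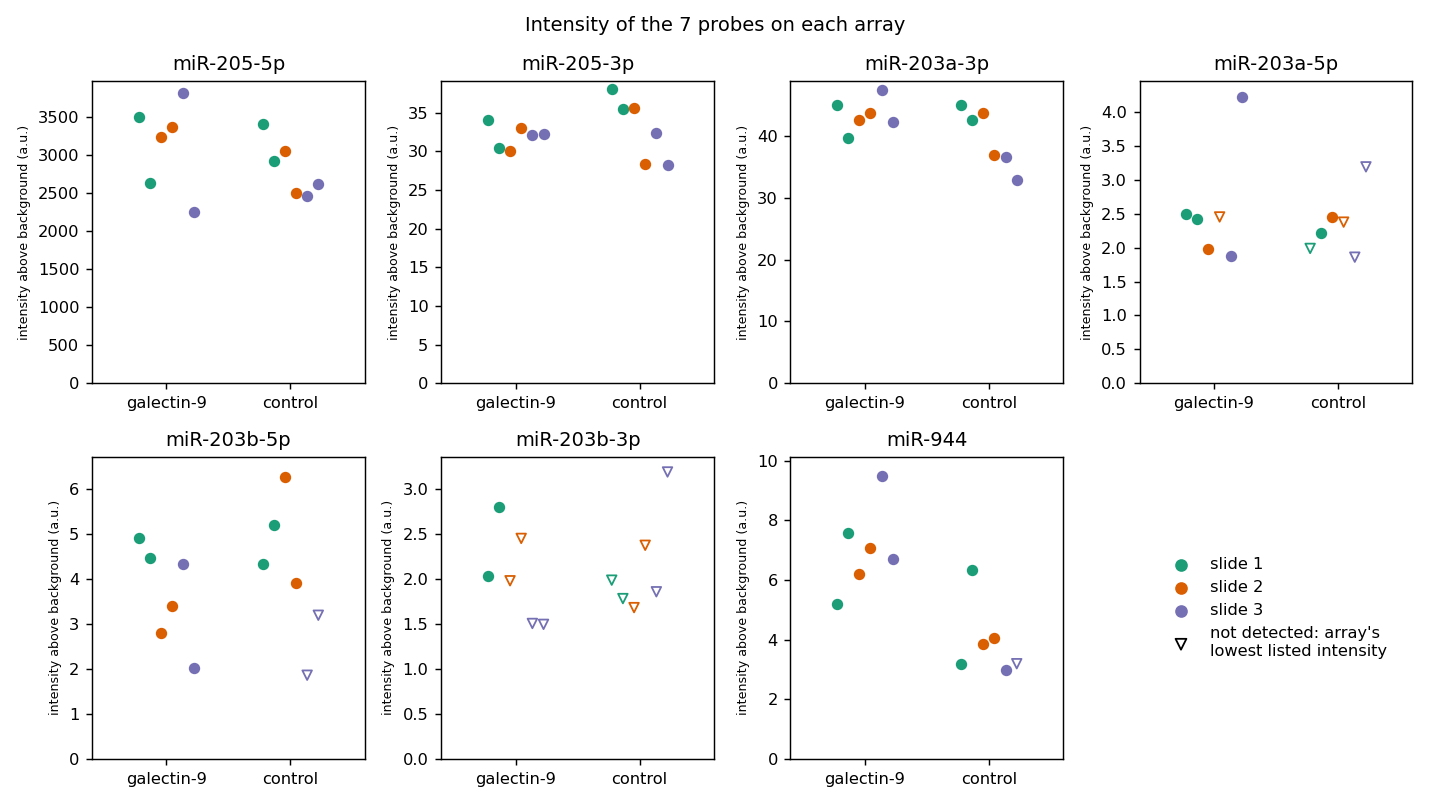
Intensity above background in arbitrary units of the 7 probes on the 6 galectin-9 and 6 control arrays, coloured by slide, on linear axes that start at 0. Open triangles mark arrays on which the probe was not detected, drawn at that array's lowest listed intensity; miR-205-5p, miR-205-3p and miR-203a-3p were detected on all 12 arrays.

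miR-205-5p, the guide arm that represses ZEB1 and ZEB2, was a bright spot on every array, of signal rank 10 to 14 among the human probes. Its lowest, median and highest intensities were 2245, 3299.8 and 3813 on galectin-9 arrays, against 2463, 2768 and 3410 on control arrays. The groups overlapped over most of their range, with galectin-9 replicates 5 and 6 at the 2 ends. After quantile normalisation its log2 intensity averaged 11.55 ± 0.13 in galectin-9 and 11.53 ± 0.10 in control cells (SD, n = 6 each).

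The other arm of this hairpin, miR-205-3p, had a lowest, median and highest intensity of 29.99, 32.2 and 34.0 on galectin-9 arrays, against 28.2, 33.96 and 38.1 on control arrays. Every galectin-9 value lay within the control range. miR-203a-3p, the arm that represses p63, had 39.8, 43.3 and 47.5 on galectin-9 arrays, against 32.97, 39.8 and 45.1 on control arrays, again with overlap. These 2 probes were also detected on all arrays, at 17.7 to 45.4 blank SDs above background for miR-205-3p and 20.7 to 63.2 for miR-203a-3p.

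The remaining 4 probes were dim. miR-944 had intensities of 5.20, 7.57, 6.22, 7.09, 9.49 and 6.70 on galectin-9 arrays 1 to 6, against 3.17, 6.34, 3.86, 4.05 and 2.98 on control arrays 1 to 5. On control 6 it was not detected, where the lowest listed intensity was 3.19. All galectin-9 arrays but 1 and 3 were above every control array, and control 2 was the only control above 5. The probe stood 5.78 to 12.6 blank SDs above background on galectin-9 arrays, against 1.74 to 7.11 on control arrays.

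miR-203b-5p was detected on 6 galectin-9 arrays, from 2.02 to 4.92, and on 4 control arrays, from 3.90 to 6.28. miR-203a-5p was detected on 5 galectin-9 arrays, from 1.88 to 4.22, and on 2 control arrays, at 2.22 and 2.46. miR-203b-3p was detected only on galectin-9 replicates 1 and 2, at 2.04 and 2.80, and on none of the control arrays. The lowest intensity listed on an array ran from 1.50 on galectin-9 replicate 6 to 3.19 on control 6.

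Each of these 4 dim probes was detected on more galectin-9 than control arrays. The exact two-sided Fisher p was 0.242 for miR-203a-5p (5 against 2 arrays), 0.455 for miR-203b-5p (6 against 4), 0.455 for miR-203b-3p (2 against 0) and 1 for miR-944 (6 against 5), without adjustment for the 4 tests. Over all human probes, 1105 (43.1%) were detected on more galectin-9 than control arrays and 177 (6.90%) on more control than galectin-9 arrays. The other 1283 had equal counts, among them 891 detected on all arrays and 192 on none. More galectin-9 arrays was thus the common direction among probes whose counts differed. No fold is given for miR-203b-3p, which was detected on too few arrays to be tested.

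The design has a single contrast, cells with galectin-9 against cells without it. None of the 6 tested members passed limma's test at an adjusted p of 0.05, where 3 of 1734 tested probes, or 0.173%, did. At an unadjusted p under 0.05, 1 member, miR-944, was on the higher side, against 4.21% of the tested probes. With the replicate number as a block, the members still had 0 calls, and 1 of 1734 probes, or 0.0577%, passed. Among the 891 probes detected on all arrays, fitted alone, 1.01% passed and 0 of the 3 members did.

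miR-944 had a log2 intensity of 2.77 ± 0.49 in galectin-9 cells and 2.02 ± 0.43 in control cells (SD, n = 6 each). The log2 difference was 0.75, a ratio of 1.68 (95% interval 1.16 to 2.44), with a limma adjusted p of 0.276 (unadjusted 0.00968). The galectin-9 array was the higher one in 6 of 6 pairs of equal replicate number, as it was for 4.38% of tested probes; both this and an unadjusted p under 0.05 held for 2.77%. The ranges of the 2 groups overlapped, and for 0.807% of tested probes the lowest galectin-9 array was above the highest control array. The pair differences ran from 0.42 to 1.55 on the log2 scale. The difference was 0.53, 0.74 and 0.98 within slides 1, 2 and 3. The unadjusted 95% interval of miR-944 included 0 without slide 2 (-0.05 to 1.56) and without slide 3 (-0.0047 to 1.27). The difference was 1.06 over positions 1 and 2 and 0.44 over positions 3 and 4.

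Each undetected value had been replaced by the lowest normalised value detected on its array, so control 6 entered with 2.44, a bound and the highest of the control values. Without control 6 the log2 difference of miR-944 was 0.84 (limma adjusted p = 0.286). The size of the difference depends on how dim values are treated. It was 0.41 with 1 floor for all arrays (limma adjusted p = 0.194), and 0.07 after normexp background correction with an offset of 50, which is larger than the intensity of this probe (limma adjusted p = 0.205).

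**Figure D2:**
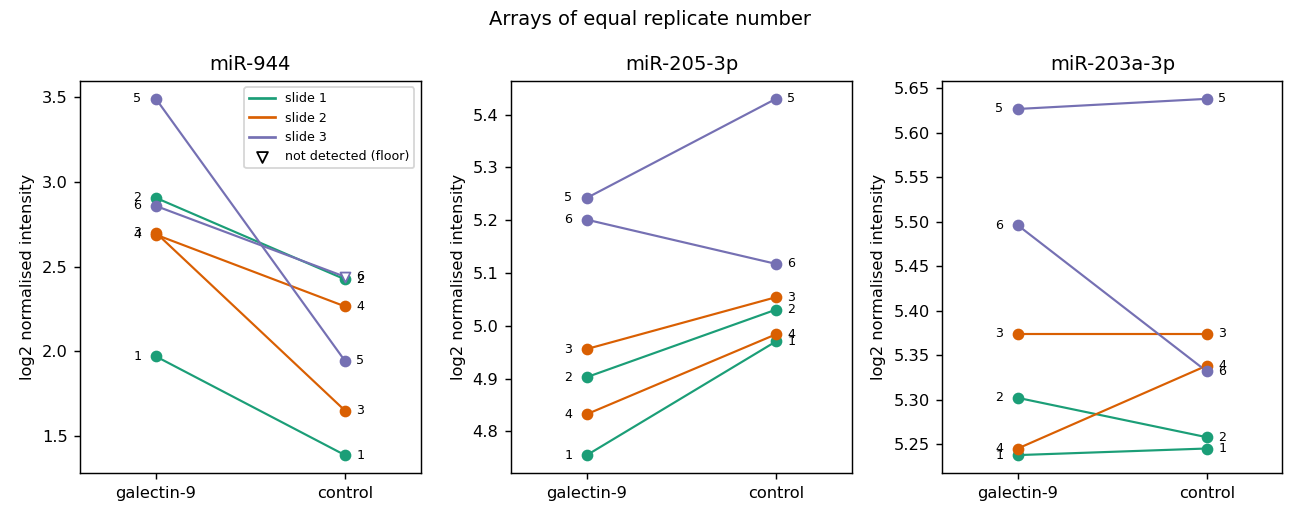
Log2 normalised intensity of miR-944, miR-205-3p and miR-203a-3p on galectin-9 and control arrays, with a line between arrays of equal replicate number, coloured by slide; the open triangle is an undetected value at its array's floor. miR-944 was higher on the galectin-9 array in 6 of 6 pairs, as were 4.38% of tested probes. miR-205-3p was lower in 5 of 6, and 1098 of 1734 tested probes had a lower mean in galectin-9 cells.

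Both arms of miR-205 had small differences after quantile normalisation. For miR-205-5p the log2 difference was 0.02, a ratio of 1.01 (95% interval 0.885 to 1.16, limma adjusted p = 0.941), with 2 pairs higher and 3 lower. Within slides 1, 2 and 3 it was 0.08, 0.08 and -0.10. For miR-205-3p it was -0.12, a ratio of 0.923 (0.775 to 1.10, limma adjusted p = 0.709). This arm had 4.98 ± 0.20 in galectin-9 and 5.10 ± 0.17 in control cells (SD, n = 6 each) and was lower in 5 of 6 pairs. No share of all tested probes is given for that count, and 1098 of 1734 tested probes had a lower mean in galectin-9 cells.

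Differences of the miR-203 arms also did not pass. miR-203a-3p had 5.38 ± 0.15 in galectin-9 and 5.36 ± 0.14 in control cells (SD, n = 6 each). Its ratio was 1.01 (95% interval 0.868 to 1.18, limma adjusted p = 0.958), and the differences within slides 1 to 3 were 0.02, -0.05 and 0.08. The dim antisense arm miR-203b-5p had 1.70 ± 0.54 in galectin-9 and 2.06 ± 0.43 in control cells, a ratio of 0.781 (0.529 to 1.15, limma adjusted p = 0.580). miR-203a-5p had 1.18 ± 0.50 in galectin-9 and 1.29 ± 0.67 in control cells, a ratio of 0.925 (0.581 to 1.47, limma adjusted p = 0.899). It was detected on only 2 control arrays, and its other control values were floors. Control 6 entered with 2.44, the highest of them, although its intensity above background was -0.957. Mean intensity above background, undetected arrays included, was 2.54 on galectin-9 and 0.938 on control arrays. The direction of this ratio thus rests on the floors.

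The values of these dim arms rest partly on floors, which were higher on control arrays 4 to 6 than on any other array. Over all tested probes 36.7% had a difference above 0. Of the 587 tested probes with a mean log2 intensity under 2, 18.2% lay above 0, and of the 1147 others 46.1% did. The signs for miR-203a-3p, miR-203a-5p and miR-205-5p also turned when single arrays were left out. Relative to the median log2 difference of all tested probes, which was -0.07, miR-944 stood at 0.82, miR-205-5p at 0.09 and miR-203a-3p at 0.09.

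**Figure D3:**
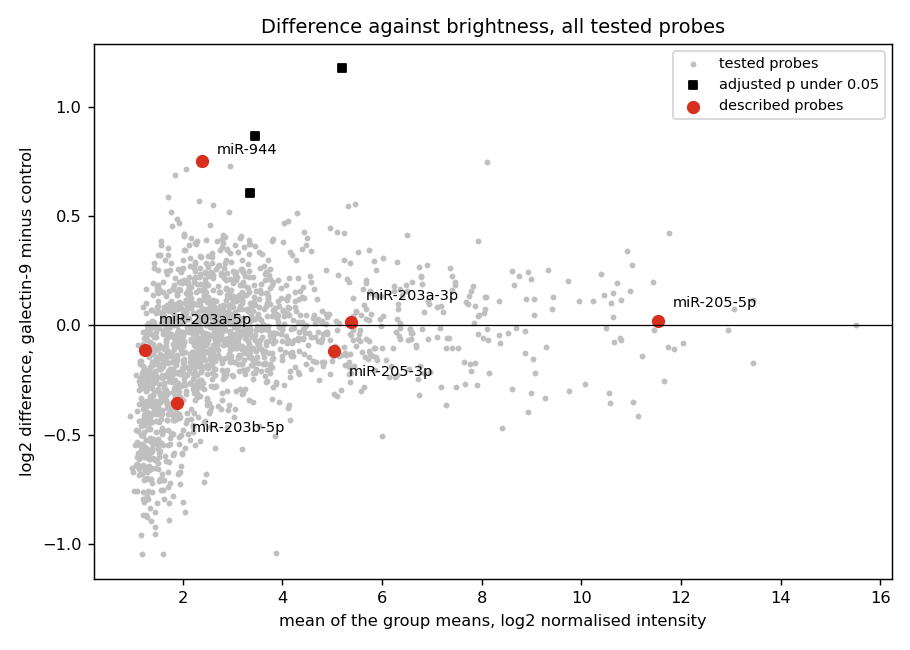
Log2 difference, galectin-9 minus control, against the mean of the group means in log2 normalised intensity for the 1734 tested probes (grey), the 3 with an adjusted p under 0.05 (black squares) and the 6 tested members (red). miR-944 lies at 0.75 among dim probes, and miR-205-5p and miR-203a-3p lie near 0; dim probes fall mostly below 0.

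On the authors' own globally normalised intensities, which set the median of the listed probes of each array to 25, miR-944 had 20.8 to 48.1 on galectin-9 arrays, against 11.3 to 25.1 on the 5 control arrays where it was listed. On that scale the log2 difference of miR-944 was 1.04 (limma adjusted p = 0.0934). The median log2 difference of all tested probes was 0.23 there. miR-944 stood 0.80 above that median, an excess that was not tested. At an unadjusted p under 0.05 by limma, 235 tested probes were higher and 2 lower on that scale. miR-205-3p, lower in galectin-9 cells after quantile normalisation, had a log2 difference of 0.13 there, which is -0.10 relative to that median.

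**Figure D4:**
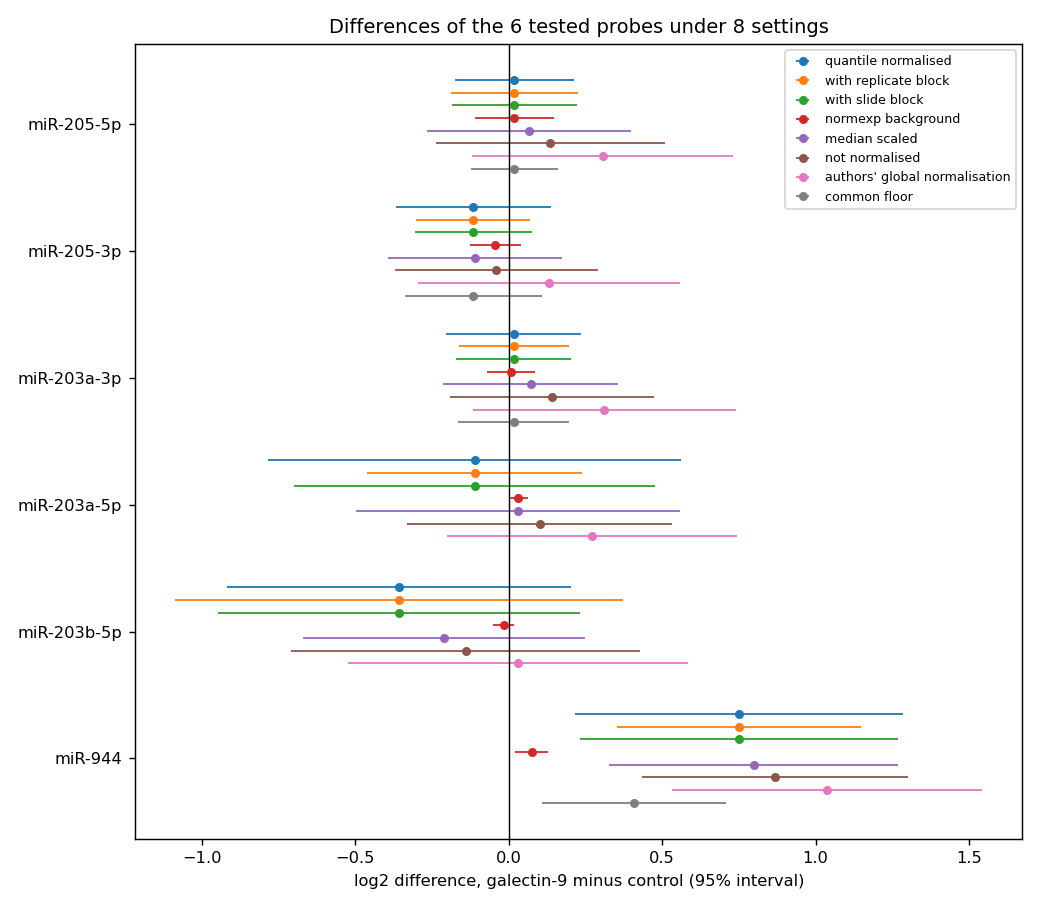
Log2 difference, galectin-9 minus control, with 95% intervals for the 6 tested members under 8 ways of processing the same arrays. Only for miR-944 do the intervals of all 8 lie above 0, before adjustment for the number of probes; its values run from 0.07 to 1.04.

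The within-group SD of log2 intensity was 0.115 for miR-205-5p, 0.149 for miR-203a-3p and 0.185 for miR-205-3p, against a median of 0.209 over the 891 probes detected on all arrays. Of these probes 10.2%, 22.8% and 40.6% had a smaller SD than miR-205-5p, miR-203a-3p and miR-205-3p, in that order. Quantile normalisation lets a bright probe such as miR-205-5p change only where it swaps ranks, and it held rank 11, with a log2 intensity of 11.58, on 6 of 12 arrays.

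The pattern across the 12 arrays was compared with that of 890 other probes detected on all of them. The probe most like miR-205-3p was miR-203a-3p, from another chromosome, and the probe most like miR-203a-3p was miR-205-3p (Pearson's r = 0.884 over 12 arrays, Spearman's rho = 0.825). For deviations from the group means r was 0.957. Both probes were highest on the arrays of replicate 5, at 5.24 on galectin-9 and 5.43 on control arrays for miR-205-3p, and at 5.63 and 5.64 for miR-203a-3p. Without both of these arrays r was 0.748, and without the 2 arrays farthest from the median of miR-205-3p it was 0.819. Before normalisation r was 0.654. The arrays share slides and a normalisation, so these coefficients are a description.

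The next most like miR-205-3p were miR-4485-3p (r = 0.850) and miR-296-5p (r = 0.807), and the next most like miR-203a-3p were miR-660-5p (r = 0.864) and miR-129-1-3p (r = 0.844), all over 12 arrays. The arms of miR-205 did not follow each other after quantile normalisation, with r = -0.29 between miR-205-5p and miR-205-3p. As miR-205-5p held the same rank on many arrays, normalisation left it little spread, so its coefficients say little. No correlation before normalisation is given for it. Nearest to miR-205-5p were miR-449b-3p (r = 0.759), miR-4646-5p (r = 0.754) and miR-3911 (r = 0.727).

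Of 11 other miRNAs linked to p63 in published work, all 11 were tested and 0 passed in either direction by limma, against the same 0.173% of all tested probes. Their median log2 difference was 0.05, with 6 above 0, against a median of -0.07 and 36.7% above 0 over all tested probes. At an unadjusted p under 0.05, 1 was higher (miR-17-5p) and 2 were lower (miR-143-3p and miR-574-3p), against 4.21% and 8.65% of all tested probes. In 6 of 6 pairs 1 was higher (miR-130b-3p) and 2 were lower (miR-143-3p and miR-34a-5p), against 4.38% and 6.40% of all tested probes. miR-17-5p, from the proliferation-linked MIR17HG cluster, had 11.15 ± 0.13 in galectin-9 and 10.88 ± 0.17 in control cells (SD, n = 6 each, limma adjusted p = 0.300). miR-143-3p, mainly a miRNA of mesenchyme, had 1.26 ± 0.51 in galectin-9 and 1.96 ± 0.53 in control cells (limma adjusted p = 0.310). It was detected on 4 arrays of each group, so its difference and its pair differences rest partly on floors. Of tested probes with a mean log2 intensity under 2, only 18.2% lay above 0. miR-574-3p had 4.88 ± 0.17 in galectin-9 and 5.20 ± 0.31 in control cells (limma adjusted p = 0.387). miR-34a-5p, which is induced by p53, had 5.75 ± 0.09 in galectin-9 and 5.89 ± 0.10 in control cells (limma adjusted p = 0.478).

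Of 12 other miRNAs of keratinocytes and squamous epithelium, 10 were tested and 0 passed, against 0.173% of all tested probes. Their median log2 difference was 0.21, with 8 above 0 and 2 below. Over all tested probes the median was -0.07 and 36.7% lay above 0, or 46.1% of those with a mean log2 intensity of 2 and over. miR-21-5p, often high in carcinoma cells, had 11.97 ± 0.14 in galectin-9 and 11.54 ± 0.18 in control cells (SD, n = 6 each, limma adjusted p = 0.204). miR-31-5p, abundant in squamous cells, had 9.46 ± 0.08 in galectin-9 and 9.20 ± 0.09 in control cells (limma adjusted p = 0.267), and miR-31-3p had 5.60 ± 0.31 and 5.05 ± 0.35 (limma adjusted p = 0.276). At an unadjusted p under 0.05, 5 were higher (these 3, miR-378b and miR-22-3p) and 0 were lower, against 4.21% and 8.65% of all tested probes. Of the 10 tested, 9 were detected on all arrays. Among the 891 probes detected on all arrays, fitted alone, 78 were higher and 77 lower at that cut. The list was chosen with earlier results of these data known. The same 5 list members were higher in 6 of 6 pairs and 1, miR-184, was lower in 6 of 6, against 4.38% and 6.40% of all tested probes. miR-184 was detected on 6 galectin-9 but only 3 control arrays, so its pair differences rest partly on floors.

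The 5 members of the miR-200 family, which share the targets ZEB1 and ZEB2 with miR-205, were detected on all arrays and 0 passed, against 0.173% of all tested probes. Their median log2 difference was 0.05, with 3 above 0, and at an unadjusted p under 0.05, 0 were higher and 1, miR-200a-3p, was lower. The values were -0.27 for miR-200a-3p (limma adjusted p = 0.348), 0.20 for miR-429 (limma adjusted p = 0.444), 0.11 for miR-200b-3p (limma adjusted p = 0.719) and -0.06 for miR-200c-3p (limma adjusted p = 0.802). Thus miR-205-5p and miR-200c-3p both had differences within the spread between arrays.

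**Figure D5:**
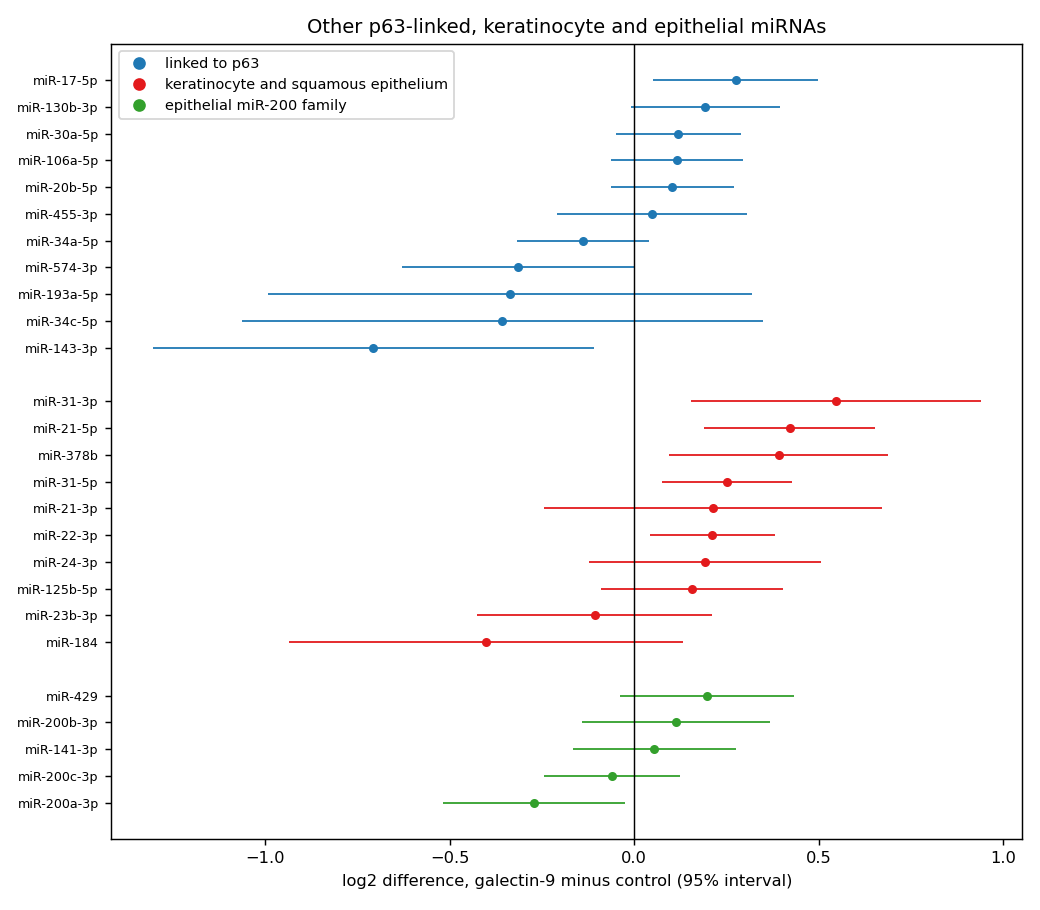
Log2 difference, galectin-9 minus control, with 95% intervals before adjustment, for 11 p63-linked, 10 keratinocyte and squamous and 5 miR-200 family probes that were tested. The keratinocyte and squamous probes lie mostly above 0, and no probe shown passed after adjustment.

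The labelled cell type was set against the detection of marker miRNAs. Of 7 squamous markers, 4 were detected on all arrays (both arms of miR-205, miR-203a-3p and miR-31-5p). The others were miR-944, detected on 6 galectin-9 and 5 control arrays, miR-203b-5p on 6 and 4, and miR-203b-3p on 2 and 0. All of these 7 but miR-31-5p are members described here, so the list is not independent of the members. All 5 miR-200 family markers of epithelium were detected on all arrays. Sums of intensity are compared only between the groups within a list, since they do not rank cell types. The squamous markers summed to 2990 to 4740 on galectin-9 and 3060 to 4160 on control arrays. Most of that sum was miR-205-5p, at 2245 to 3813 on galectin-9 and 2463 to 3410 on control arrays. The miR-200 family summed to 3170 to 4070 on galectin-9 arrays and 2740 to 3860 on control arrays. Of the 6 blood cell markers 0, of the 4 muscle markers 0 and of the 5 mesenchyme markers 1 were detected on all arrays. On 6 or more arrays, 5 blood cell, 2 muscle and 4 mesenchyme markers were detected, and 6 squamous markers. The blood cell markers miR-142-3p and miR-150-5p were each detected on 6 galectin-9 and 5 control arrays, as miR-944 was. Their highest intensities were 18.3 and 7.36, against 9.49 for miR-944. The blood cell markers summed to 8.83 to 28.3 on galectin-9 and 0 to 32.6 on control arrays, and the muscle markers to 2.45 to 10.5 and 0 to 7.50. The muscle marker miR-1 was detected on no array. The mesenchyme markers summed to 21.8 to 46.1 on galectin-9 and 12.6 to 51.1 on control arrays. Of these miR-143-3p and miR-145-5p did not exceed 6.21 and 5.00 on any array, while miR-214-3p was detected on all 12, with at most 36.7. The endothelial miR-126-3p was detected on all 12, with 37.6 to 56.9 on galectin-9 and 32.7 to 48.4 on control arrays. These values do not settle the labelled cell type, and the part of other cell types in the members' values was not tested.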

How the data were processed

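Per the file headers, each deposited array file gives 3200 spots, 320 of them blank, by raw intensity, intensity after background subtraction and intensity after global normalisation. The authors' background equals the mean of the blanks after trimming 5% at each end. The authors' deposited series table holds quantile-normalised intensities of 891 probes. The scanning step is not described in those headers or labels.

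Raw intensity minus background was quantile-normalised over 2565 human probes with limma 3.58.1 in R 4.3.3. Undetected values took the lowest normalised value detected on their array, before conversion to log2. Spots marked not good (6) were dropped. The test covered the 1734 probes detected on 6 or more arrays, with lmFit and eBayes, two-sided, with Benjamini-Hochberg adjustment over all of them. The fit was tested on simulated data.

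Deviations from group means correlated between arrays of equal replicate number at 0.171 to 0.527 in 6 of 6 pairs. No such correlation is given for arrays of unequal number, so these values do not show that the numbers mark pairs. Neighbouring positions could also give the same. Taking equal numbers as pairs is thus an assumption. The main fit has no block, so its intervals and p-values are unpaired. Alternatives covered normalisation, background, filter, floor, blocks, slides and single arrays. The members and the lists were chosen with earlier results of these data known. Named are the 7 members (the rule as first written listed 6, and the naming rule also takes in miR-203a-5p), 3 miRNAs of each of 3 lists with the smallest unadjusted p, miR-31-5p, miR-200c-3p and miR-34a-5p in any case, and the 3 probes most like each member detected on all arrays. miR-378b, miR-22-3p, miR-130b-3p, miR-184 and the marker miRNAs named were picked after their values were seen. The number of arrays limits the precision.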

Additional observations from a re-analysis of the deposited data

Results flagged for a closer look

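Of 8 groups of 6 arrays in which a member was detected throughout, 3 held an array farther from the rest than Dixon's test at 95% allows. Chance marks about 1 in 20 groups. The marks are not independent, since miR-205-3p and miR-203a-3p were both marked on control replicate 5. These probes varied together (r = 0.957 for deviations from the group means), so the number of marks cannot be set against that rate. For miR-205-5p, galectin-9 replicate 6 had a log2 intensity of 11.29, against 11.58 to 11.65 on the other galectin-9 arrays. Replicates 1, 2, 3 and 5 all held rank 11, so normalisation left little spread among them, and Dixon's test says little about replicate 6. Before normalisation that array had 2245, against 2625 to 3813 on the other galectin-9 arrays. Control replicate 5 was high for miR-205-3p, at 5.43 against 4.97 to 5.12 on the other control arrays. The same array was high for miR-203a-3p, at 5.64 against 5.24 to 5.37. Before normalisation, control replicate 5 had intensities of 32.4 for miR-205-3p and 36.6 for miR-203a-3p, both within the range of the other control arrays. Why the array stood apart after normalisation was not tested.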

How the results depend on the processing

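None of the 145 values of the 6 tested members under 26 alternatives passed limma's test. The log2 difference of miR-944 was above 0 in all of its alternatives, from 0.07 (normexp) to 1.04 (the authors' global normalisation), and from 0.61 to 0.91 with single arrays left out, with adjusted p from 0.0934 to 0.590. Its unadjusted 95% interval included 0 without slide 2 (-0.05 to 1.56) and without slide 3 (-0.0047 to 1.27). Under the authors' global normalisation, values turned to 0.13 for miR-205-3p, 0.030 for miR-203b-5p and 0.27 for miR-203a-5p. The last also turned with median scaling (0.031), no normalisation (0.10), normexp (0.030) and without slide 3 (0.061). miR-203a-3p turned to -0.014 without slide 3, and miR-205-5p to -0.013 without slide 1 and -0.011 without slide 2. Under the authors' global normalisation miR-205-5p had 0.31 (95% interval -0.12 to 0.73) and miR-203a-3p 0.31 (-0.12 to 0.74). The median of all tested probes was 0.23 there. With no normalisation they had 0.14 (-0.24 to 0.51) and 0.14 (-0.19 to 0.47), against a median of 0.06. With single arrays left out, miR-205-5p ran from -0.015 to 0.069, turning without galectin-9 replicate 4 or control 2. miR-203a-3p ran from -0.033 to 0.071, turning without galectin-9 replicates 5 or 6 or controls 1 or 2. miR-203a-5p ran from -0.29 to 0.12, turning without control 6. miR-205-3p ran from -0.17 to -0.05 and miR-203b-5p from -0.51 to -0.15. With 1 floor for all arrays, miR-203a-5p and miR-203b-5p lay at the floor throughout and gave no value. The 3 calls over all probes became 19 with normexp, 17 with 1 floor, 9 among the authors' series table, 9 among probes detected on all arrays, 5 with the slide block, 1 with the replicate block and 22 with that block among probes detected on all arrays. They ran from 2 to 5 with single arrays left out, the 5 without galectin-9 replicate 1. Without slide 1, 2 or 3, which leaves 8 arrays, limma made 0 calls; at an unadjusted p under 0.05, 40, 35 and 72 probes were then higher and 143, 111 and 75 lower. The replicate block changed no call of a member. Where no cause is named, the cause was not tested. Signal near the limit of the blanks restricts what can be said of miR-944, miR-203a-5p and both arms of miR-203b.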
